A study of Homo sapiens with 6 samples.

Results

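Integrins are receptors for the extracellular matrix that sit in the cell membrane as pairs of 1 alpha and 1 beta chain. The beta chain binds talin and kindlin inside the cell and so joins the matrix to actin and to kinase signalling at focal adhesions, and the alpha chain sets most of the choice of ligand. ITGB1 is the common beta chain of the collagen receptor with ITGA2, the laminin receptors with ITGA3 and ITGA6, and the fibronectin receptor with ITGA5. ITGAV pairs with ITGB3 and ITGB5 in receptors for vitronectin and other RGD ligands, and ITGB4 joins ITGA6 in the laminin receptor of hemidesmosomes.

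These 9 integrin genes, of 19970 that code for proteins on the autosomes and X, were taken by name, and every deposited region that overlapped the span of a gene or the 5 kb on either side of it was assigned to that gene. This gave 561 regions of 999395 in the 6 lists. The cells were MDA-MB-231, an established triple-negative breast cancer line with mesenchymal features, and chromatin was mapped by CUT&Tag, in which the transposase Tn5 is tethered to an antibody and cuts out the DNA beside the antigen. NONO, a nuclear protein that binds RNA and DNA, was mapped in control cells (NC, genotype WT in the labels) and in NONO-KD cells. H3T11ph (histone H3 phosphorylated at threonine 11, a mark attributed to the kinase PKM2) and H3K27ac (acetylated lysine 27, found at active promoters and enhancers) were mapped in NC and PKM2-KD cells. Each of the 6 groups was 1 library, so the differences below describe these libraries, no p-value is given, and the intervals cover counting error only. The study's methods describe both siRNA and shRNA knockdowns and use the name NC for the siRNA control, but their account of CUT&Tag names neither, and peak lists cannot show how far NONO or PKM2 was lowered.

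A region is 1 row of a peak list. Its summit height is the number of fragments piled up at its highest point, recovered from the deposited fold and p-value, and its fold is that height over the caller's background at the same place. The recovered depth was 3.34 and 2.84 fragments per kb in NONO NC and NONO-KD, 3.35 and 3.42 in H3T11ph NC and PKM2-KD, and 7.46 and 7.48 in H3K27ac NC and PKM2-KD, so heights of the H3K27ac pair can be set side by side. For both NONO and H3K27ac, peak calling differed in form between the 2 cell states: 94.6% of NONO NC regions and 79.3% of H3K27ac NC regions had exactly the narrowest width of their list, against 1.19% to 2.05% in the other 4 lists. In these pairs the effect of the knockdown on the number and width of regions cannot be told apart from that of the calling. The narrowest regions were 269 bp in NONO NC and 98 bp in NONO-KD, and the commonest background 0.899 and 0.278. Heights of the NONO pair are therefore not on 1 scale. Strand, and with it the start of transcription, was known for 6 of the 9 genes (ITGB1, ITGA2, ITGA5, ITGA6, ITGAV and ITGB5). For ITGA3, ITGB3 and ITGB4, and for every other gene without a strand, either end of the gene counted as a start.

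Regions of NONO or H3T11ph reached the 250 bases before a RefSeq start (GRCh38.p14) at ITGB1, ITGA2 and ITGB5. These stretches are shown 5′ to 3′ on the strand of the gene. They are the places where the narrow NONO and H3T11ph regions touched a promoter of the 6 integrin genes with a known strand. ITGA3, ITGB3 and ITGB4 had no listed start and could not be examined in this way. Capitals mark the bases covered by every NONO or H3T11ph region that reached the stretch: 121 bases at ITGB1 (shared by NONO NONO-KD, H3T11ph NC and H3T11ph PKM2-KD), 212 bases at ITGA2 (H3T11ph PKM2-KD) and 120 bases at ITGB5 (H3T11ph PKM2-KD).
ITGB1, chr10:32958231-32958480, minus strand: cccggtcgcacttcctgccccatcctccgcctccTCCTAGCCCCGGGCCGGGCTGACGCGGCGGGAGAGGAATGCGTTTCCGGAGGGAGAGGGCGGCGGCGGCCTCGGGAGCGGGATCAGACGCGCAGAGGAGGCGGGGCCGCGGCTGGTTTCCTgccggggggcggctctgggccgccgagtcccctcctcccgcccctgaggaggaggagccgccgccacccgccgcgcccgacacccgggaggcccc
ITGA2, chr5:52989102-52989351, plus strand: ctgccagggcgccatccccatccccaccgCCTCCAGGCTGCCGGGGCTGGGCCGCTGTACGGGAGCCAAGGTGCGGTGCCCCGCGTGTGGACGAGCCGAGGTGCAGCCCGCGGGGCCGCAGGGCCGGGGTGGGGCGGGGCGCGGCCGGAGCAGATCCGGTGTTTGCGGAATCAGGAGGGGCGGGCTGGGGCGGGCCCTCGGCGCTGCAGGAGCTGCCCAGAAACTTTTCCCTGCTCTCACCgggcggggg
ITGB5, chr3:124887366-124887615, minus strand, before its start at 124887365: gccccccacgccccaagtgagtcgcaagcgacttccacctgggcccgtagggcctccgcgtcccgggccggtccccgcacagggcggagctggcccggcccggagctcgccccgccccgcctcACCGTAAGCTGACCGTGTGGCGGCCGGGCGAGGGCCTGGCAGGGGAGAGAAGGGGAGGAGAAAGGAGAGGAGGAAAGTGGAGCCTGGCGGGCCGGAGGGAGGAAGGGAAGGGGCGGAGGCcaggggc
All 3 stretches were rich in CG pairs, with 32 at ITGB1, 26 at ITGA2 and 23 at ITGB5 against a median of 11 over 35116 RefSeq promoter entries. The GC box GGGCGG, the site of SP1-type factors, was found on either strand 3 times at ITGB1, 4 times at ITGA2 and 3 times at ITGB5, and 42.6% of all promoter entries held at least 1. At ITGB1 the GC boxes began at positions -160, -89 and -58, of which the first lay inside the capitals. The same 250 bases held no CCAAT box (CCAAT, 32.0% of all entries), no TATA box (TATAAA, 10.7%), no AP-1 site (TGACTCA or TGAGTCA, 4.20%) and no ETS site (CCGGAAG, 8.52%) in any of the 3 genes, so no GC box overlapped another of these motifs. A motif match describes the letters only, and its absence says only that those letters are not in this stretch.

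**Figure D1:**
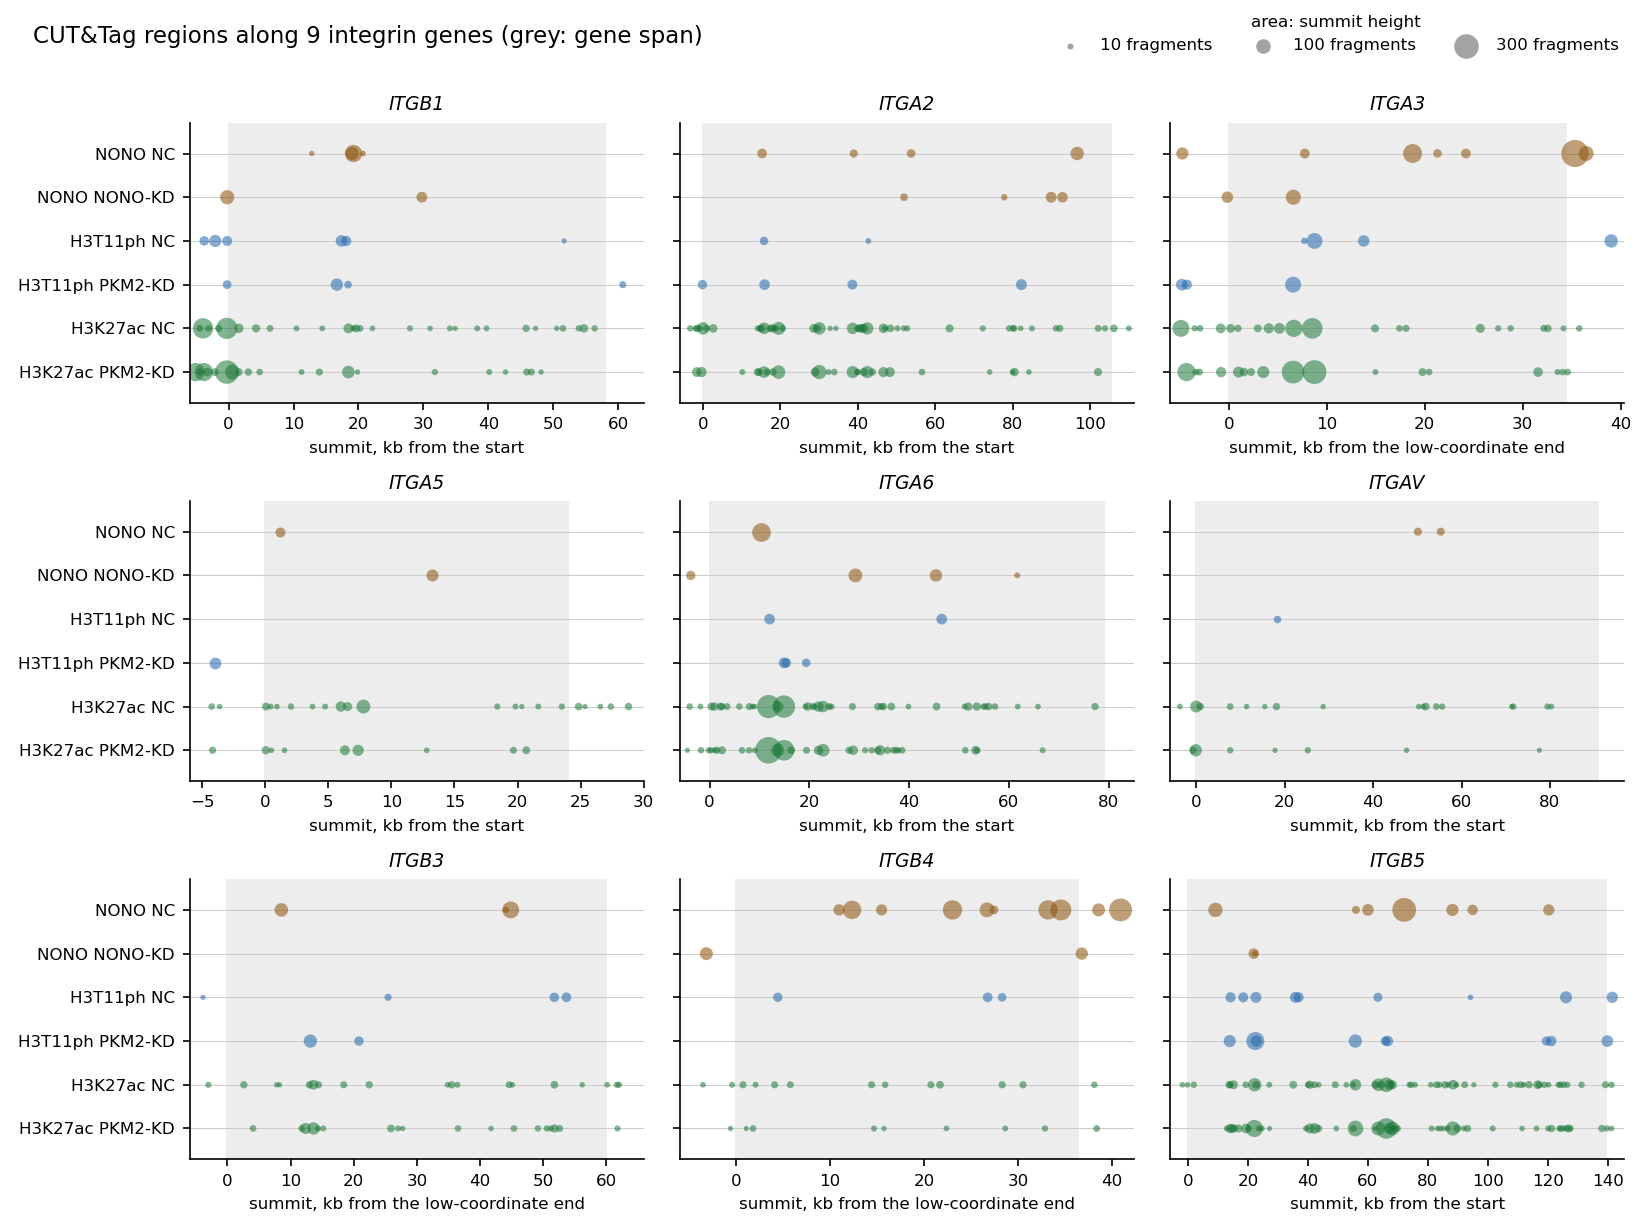
Regions of the 6 lists along the 9 integrin genes. Each point is 1 region placed at its summit (x axis, kb from the start of transcription, or from the low-coordinate end for ITGA3, ITGB3 and ITGB4), the rows are the libraries, the area of a point grows with summit height in fragments, and the grey band is the gene span. The large H3K27ac points recur at the same places in NC and PKM2-KD at ITGB1, ITGA3, ITGA6 and ITGB5, and no NONO NC point lies on a NONO-KD region.

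H3K27ac marked the integrin genes densely, and in both cell states the tall regions stood at the same places. Regions covered a median of 11.2% of a gene window in NC (3.20% to 18.9% over the 9 genes) and 12.7% in PKM2-KD (2.49% to 28.0%), where the medians over all protein-coding genes were 3.65% and 2.61%. Covered share was highest at ITGA3, the laminin-receptor alpha chain, with 18.9% in NC and 28.0% in PKM2-KD. It was lowest at ITGAV, with 3.20% and 2.49%, which was near the median of all genes. ITGB4 followed with 3.76% and 4.81%. The remaining 6 genes lay between 7.17% (ITGB3) and 15.1% (ITGA5) in NC. Ordered by regions per 10 kb, 0 of 8 pairs of neighbouring genes differed at 0.05 by a binomial split of their counts in any of the 6 libraries. Genes far apart in the order could differ. In H3K27ac NC the exact Poisson interval was 3.82 to 9.44 regions per 10 kb at ITGA5 and 0.982 to 2.70 at ITGAV.

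**Figure D2:**
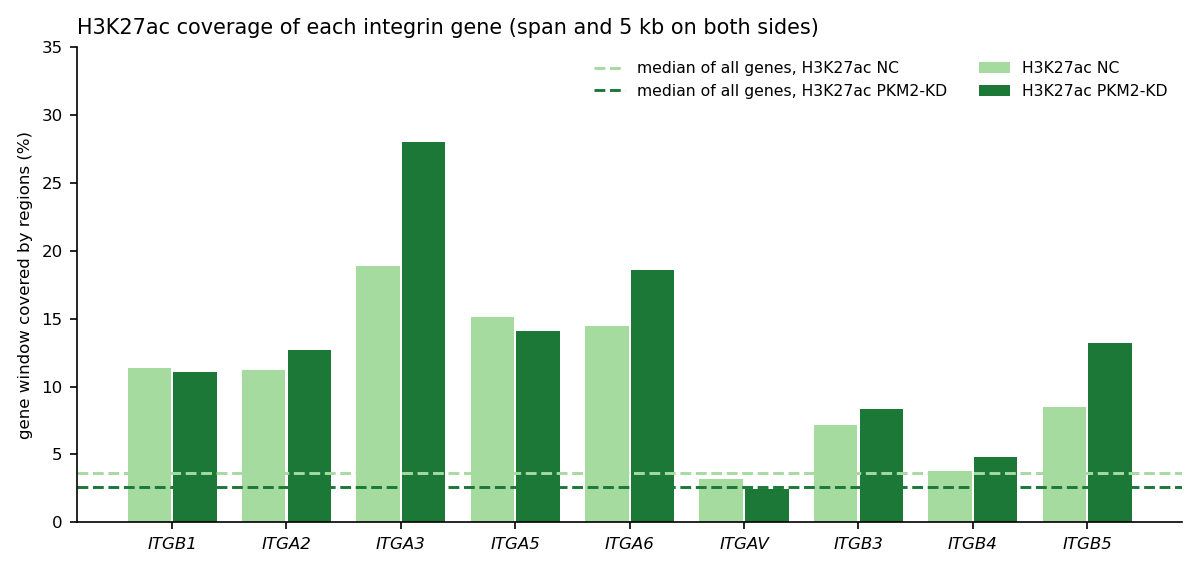
Share of each integrin gene window (gene span and 5 kb on both sides) covered by H3K27ac regions, in percent, in NC (light bars) and PKM2-KD (dark bars), with the median of all genes as dashed lines. ITGA3 stands highest at 18.9% and 28.0%, ITGAV lies at 3.20% and 2.49%, and each bar is 1 library.

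The number of H3K27ac regions was lower in PKM2-KD at 9 of 9 integrin genes, while the length they covered was greater at 6 of 9. Over all genes with a region, 85.1% had fewer regions in PKM2-KD and 35.4% had a greater covered length. Together the integrin genes held 260 NC regions and 188 PKM2-KD regions, 72.3% of NC (exact 95% interval 59.6% to 87.6%), where the whole lists stood at 37.2%. Their summed length was 69796 bp in NC and 86185 bp in PKM2-KD, 123.5% of NC against 69.6% for the whole lists, with a mean width of 268 bp and 458 bp. The direction of the count depended on which regions entered. Among regions with a −log10 q of at least 5 there were 119 in NC and 145 in PKM2-KD, and 4 of the 9 genes had fewer and 5 had more. The recovered scale of the pileup was 0.521 in H3K27ac NC and 1 in PKM2-KD, so q is not on 1 scale in this pair. The same q minimum is thus not the same height minimum. Among regions at least 2 times the narrowest width there were 82 and 119. Among regions of at least 20 fragments there were 77 in NC and 69 in PKM2-KD, with fewer at 6 genes and more at 3. Shares over all genes were not counted under these filters. These counts therefore do not show whether the turn is particular to the integrin genes.

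Every one of the 22 H3K27ac NC regions of 50 or more fragments at the integrin genes was found again in PKM2-KD (100%, exact 95% interval 84.6% to 100%), where 97.2% of all such regions of the list were. At 20 to 49 fragments 36 of 55 regions were found again (65.5%, interval 51.4% to 77.8%, whole list 44.0%). At 10 to 19 fragments it was 39 of 114 (34.2%, 25.6% to 43.7%, whole list 11.4%), and under 10 fragments 14 of 69 (20.3%, 11.6% to 31.7%, whole list 4.63%). In all, 111 of 260 NC regions were found again, 42.7% against 13.3% of the whole list. By gene the count ran from 26 of 47 regions at ITGA2 to 3 of 17 at ITGAV. Covered share was also above that of the median gene at most of these genes, and its part in this overlap was not tested.

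**Figure D3:**
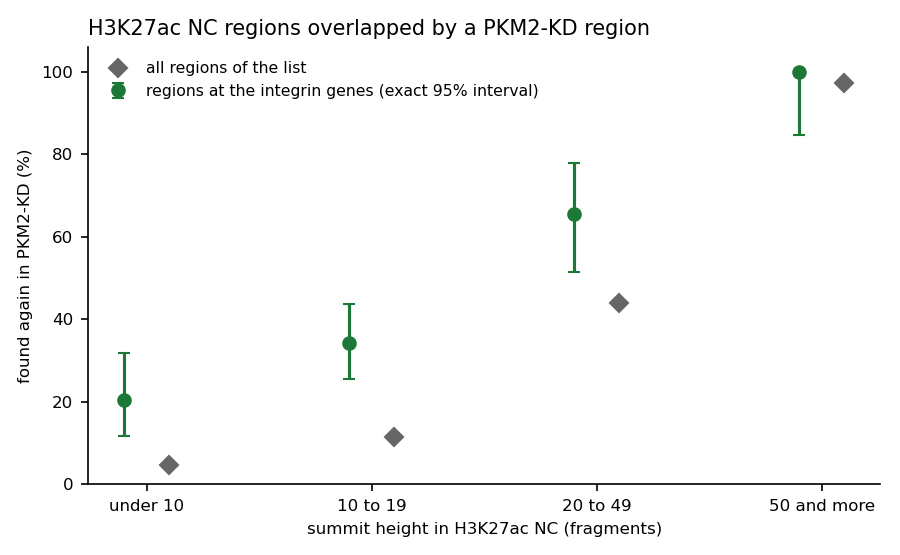
Share of H3K27ac NC regions that a PKM2-KD region overlapped by at least 1 bp (y axis, percent), by summit height in NC (x axis, fragments), for the regions at the integrin genes with exact 95% binomial intervals and for all regions of the list. The integrin regions go from 20.3% under 10 fragments to 100% at 50 and more, and the whole list from 4.63% to 97.2%.

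The tallest H3K27ac region was higher in PKM2-KD at 7 of 9 integrin genes, where 41.4% of all genes with a region had a higher tallest region. At ITGA6 it spanned chr2:172437079-172440235 in NC with 267 fragments and chr2:172436965-172440256 in PKM2-KD with 352 fragments, 132% of NC (interval 112% to 155%). At ITGB1 the heights were 222 and 273 fragments (123%, 103% to 147.5%), and at ITGA3 208 and 283 (136%, 113% to 163.5%). ITGB5 had 101 and 207 fragments (205%, 161% to 263%) and ITGB3 42 and 71 (169%, 114% to 254%). These 5 intervals exclude 100%. The intervals of ITGA2, with 78 and 96 fragments (123%, 90.3% to 168%), and of ITGAV, with 64 and 69 (108%, 75.6% to 154%), include it. The tallest region was lower in PKM2-KD at ITGA5, the fibronectin-receptor alpha chain, with 90 and 56 fragments (62.2%, 43.8% to 87.8%), and at ITGB4, with 22 and 15 (68.2%, 32.9% to 137.5%). In 7 of the 9 genes the tallest NC region and the tallest PKM2-KD region overlapped, the exceptions being ITGA2 and ITGB4. At ITGA2 the PKM2-KD region over the tallest NC region reached 85 fragments.

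**Figure D4:**
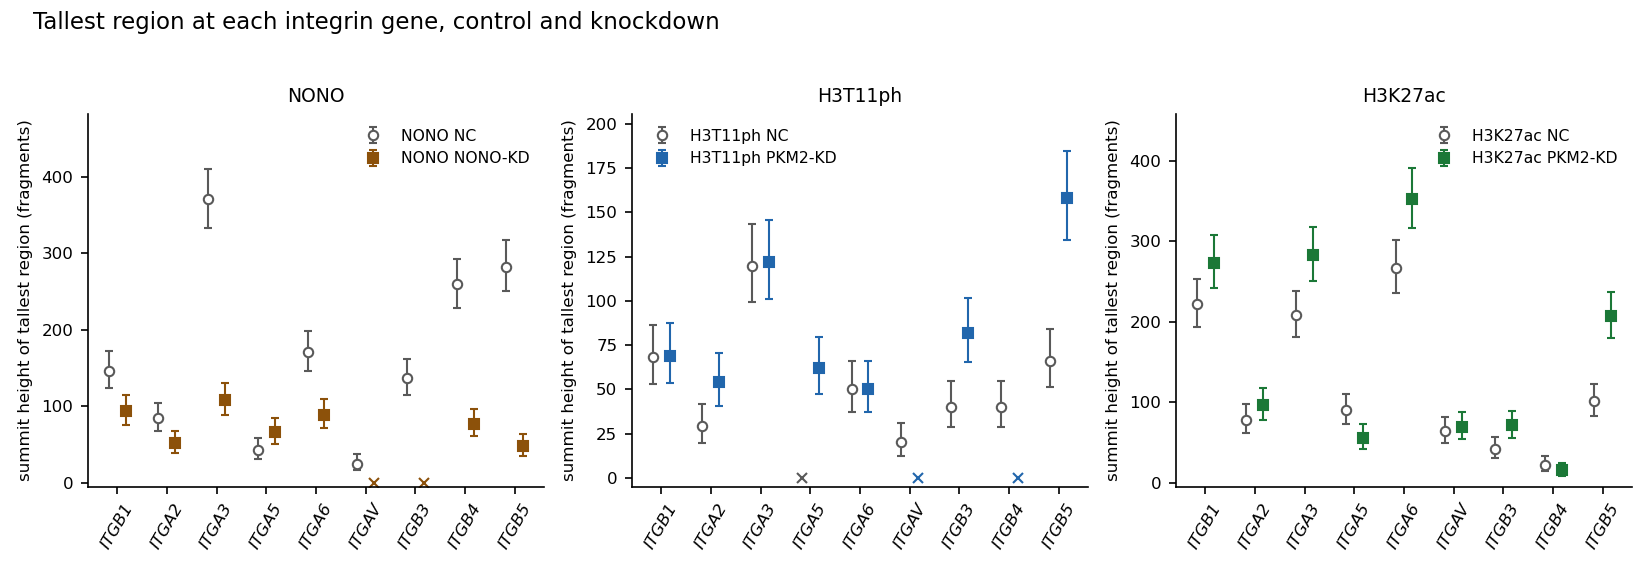
Summit height in fragments of the tallest region at each integrin gene in NC (open circles) and knockdown (squares), in panels for NONO, H3T11ph and H3K27ac, with exact 95% Poisson intervals for counting error. A cross at 0 marks a gene with no listed region. In the H3K27ac panel ITGA6 reaches 267 and 352 fragments and ITGA5 lies at 90 and 56, and in the NONO panel ITGA3 stands at 370 and 108.

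H3K27ac lay toward the 5′ side of the 6 integrin genes with a known strand. In NC it covered 17.4% of the 5 kb before the start, then 16.1%, 8.29% and 4.81% of the first, middle and last of 3 equal parts of the gene, and 3.83% of the 5 kb after it. Over the 15812 genes with a known strand the same shares were 6.24%, 4.19%, 3.34%, 3.46% and 4.52%. In PKM2-KD the integrin shares were 20.5%, 19.1%, 12.2%, 4.45% and 1.15%. H3T11ph NC covered 1.47% of the 5 kb before the start, all of it at ITGB1. It covered 0.913% of the first part of the gene and 0.335% of the middle part. Over all genes with a known strand these shares were 0.606%, 0.237% and 0.197%, in the same order. NONO NC covered none of the 5 kb before or after these 6 genes, against 1.82% and 1.72% over all genes with a known strand. NONO-KD covered 0.97% before and none after, against 0.307% and 0.269%. With 6 genes these shares rest on few regions.

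**Figure D5:**
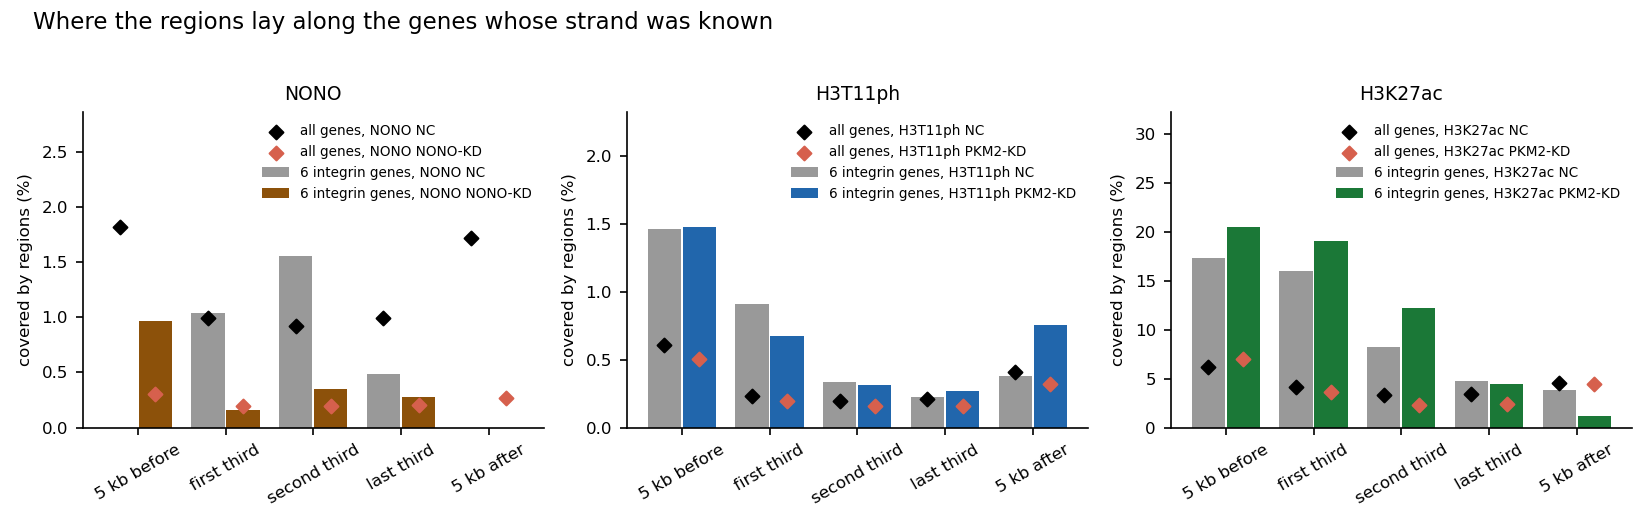
Share of sequence covered by regions (y axis, percent) in 5 places along the 6 integrin genes of known strand (bars, NC grey and knockdown coloured) and along all 15812 such genes (diamonds), in panels for NONO, H3T11ph and H3K27ac with their own axes. H3K27ac on the integrin genes goes from 17.4% before the start to 3.83% after the end in NC and from 20.5% to 1.15% in PKM2-KD.

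At the starts themselves (1 kb on both sides), H3K27ac was present at 9 of 9 integrin genes in NC and at 7 of 9 in PKM2-KD, where 68.4% and 59.4% of all genes had a region. The 2 genes without one in PKM2-KD were ITGB3 and ITGB5, whose NC regions there had only 8 and 7 fragments. For ITGB5 only the outermost start counted here, and its listed start at 124887365 had H3K27ac in both states. Counting any listed start, H3K27ac was at 8 of 9 genes in PKM2-KD (62.1% of all genes). H3T11ph was at the start of 1 integrin gene in NC (ITGB1) and 2 in PKM2-KD (ITGB1 and ITGA2), with 14.9% and 14.7% of all genes as background. With any listed start these were 2 and 3 genes, ITGB5 being added in both states, against 16.1% and 16.0%. NONO was at the end of 1 gene in NC (ITGA3) and at 3 genes in NONO-KD (ITGB1, ITGA3 and ITGB4), against 21.7% and 7.42% of all genes. The NONO NC region of ITGA3 and the NONO-KD region of ITGB4 lay beside the high-coordinate end of genes whose strand was not known, so they may not be at a start.

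ITGB1, the common beta chain, had the tallest H3K27ac start in both states among the 6 genes with a known start. Its H3K27ac region spanned chr10:32957394-32959404 in NC and reached 222 fragments 252 bp before the start, and in PKM2-KD chr10:32958117-32959491 reached 273 fragments 257 bp before it. Downstream of that, PKM2-KD held a separate region of 102 fragments at chr10:32957355-32957888. Inside the acetylated stretch lay 3 narrow regions with nearly the same summit. H3T11ph NC had 42 fragments at chr10:32958288-32958487, H3T11ph PKM2-KD 31 at chr10:32958326-32958446 (73.8% of NC, interval 44.9% to 120%), and NONO NONO-KD 94 at chr10:32958306-32958487. The summits stood 207, 215 and 207 bp before the start. NONO NC had no region there. The folds of the H3T11ph regions, 2.82 and 2.58, were low for their heights, and that of the NONO-KD region was 12.6.

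A second tall H3K27ac region stood upstream of ITGB1, with 204 fragments in NC (summit 3922 bp before the start) and 163 in PKM2-KD (3779 bp). It too held an H3T11ph region in NC, with 38 fragments and a fold of 12.2, and none in PKM2-KD. Inside the gene, NONO NC had 146 and 80 fragments at chr10:32938765-32939033 and chr10:32939188-32939456, both on H3K27ac regions of NC and PKM2-KD, and NONO-KD had its other region, of 51 fragments, at a different place. In all ITGB1 held 4 and 2 NONO regions, 6 and 4 H3T11ph regions, and 28 and 20 H3K27ac regions in NC and knockdown.

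Among the alpha chains that pair with ITGB1, ITGA2 carried the most H3K27ac regions in NC by plain count, 47 against 39 at ITGA6. In PKM2-KD it had 27 against 32 at ITGA6. Gene length enters these counts. Per 10 kb of window ITGA2 had 4.07 NC regions, fewer than ITGA6 (4.38), ITGA3 (4.73) and ITGA5 (6.175). Its start reached 71 fragments in NC and 46 in PKM2-KD (64.8%, interval 43.7% to 95.2%). A chain of regions of 60 to 78 fragments ran from 15813 to 42463 bp inside the gene in NC. PKM2-KD regions with summits 15794, 19533, 30058, 38680 and 42437 bp inside had 59, 85, 96, 67 and 68 fragments. H3T11ph stood at the start in PKM2-KD only in these lists, with 36 fragments at chr5:52989131-52989342 and its summit 138 bp before the start. Further in, H3T11ph regions of both states overlapped at their edges, chr5:53005098-53005261 in NC with 29 fragments and chr5:53005222-53005320 in PKM2-KD with 49, with summits 15784 and 15919 bp inside the gene, and both overlapped H3K27ac regions. CUT&Tag carries no strand, so signal at this start cannot be told apart from that of the antisense gene ITGA2-AS1.

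ITGA3 held a cluster of tall H3K27ac regions near its low-coordinate end. In NC these reached 139 fragments at chr17:50050469-50051965, 144 at chr17:50062391-50062858 and 208 at chr17:50063298-50065115. In PKM2-KD the overlapping regions had 161, 255 and 283 fragments. At the second of these places the folds were only 2.0 and 2.79, so the caller's background there was high as well. The same place carried NONO in NONO-KD, with 108 fragments and a fold of 2.63, and H3T11ph in PKM2-KD, with 122 fragments and a fold of 3.04. H3T11ph NC instead had its tallest region, of 120 fragments and a fold of 11.1, at chr17:50064792-50064998. ITGA3 also had the tallest NONO region of the 9 genes, 370 fragments in NC at chr17:50091439-50091707, beyond the high-coordinate end of the gene and outside H3K27ac. The window of ITGA3 also reaches the gene PDK2.

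ITGA6, the laminin-receptor alpha chain shared by ITGB1 and ITGB4, had its tall H3K27ac regions inside the gene. Its start had 27 fragments of H3K27ac in NC and 11 in PKM2-KD (40.7%, interval 18.2% to 84.9%). With summits 11814 and 11819 bp inside lay the region of 267 and 352 fragments, 3157 and 3292 bp wide in NC and PKM2-KD, and with summits 14889 and 14922 bp inside a neighbour of 248 and 208 fragments. By its tallest region ITGA6 stood above 99.4% of all genes in NC and 99.7% in PKM2-KD. NONO NC had 1 region at ITGA6, of 171 fragments at chr2:172437443-172437711 inside the tallest acetylated region, and none of the 4 NONO-KD regions (9 to 89 fragments) was there. H3T11ph NC had 49 fragments in the same acetylated region, and 2 of the 3 H3T11ph PKM2-KD regions, of 50 and 39 fragments, lay in the neighbour.

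ITGA5 was acetylated over 15.1% of its short window in NC and 14.1% in PKM2-KD with 21 and 9 regions, and its start had 23 and 27 fragments. Its tallest region had its summit 7781 bp inside the gene in NC and 7363 bp in PKM2-KD. It had no H3T11ph region in NC and 1 in PKM2-KD, of 62 fragments 3995 bp before the start. NONO had 1 region in each state, 43 fragments in NC with a summit 1135 bp inside the gene and 66 in NONO-KD with a summit 13235 bp inside. The window of ITGA5 also reaches ZNF385A.

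Of the αV group, ITGAV was the least marked of the 9 genes by H3K27ac covered share in both states. Its start had 64 fragments of H3K27ac in NC and 69 in PKM2-KD, and no other ITGAV region was taller in either state. NONO had 2 regions of 25 and 24 fragments in NC and none in NONO-KD, and H3T11ph 1 region of 20 fragments in NC and none in PKM2-KD. ITGB3 had 3 NONO regions in NC, of 86, 12 and 137 fragments, and none in NONO-KD. Its 4 H3T11ph regions in NC had 5 to 40 fragments, and the 2 in PKM2-KD had 82 and 37 at other places.

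ITGB5, the longest of the genes, carried the most H3T11ph regions, 9 in each state, but not the largest covered share. H3T11ph covered 0.905% of its window in NC and 0.827% in PKM2-KD, against 1.51% and 1.17% at ITGA3. The tallest H3T11ph region of ITGB5 had 66 fragments in NC and 158 in PKM2-KD (239%, interval 178.5% to 324%), at different places. The region of 158 fragments, chr3:124878856-124879000, overlapped an NC region of 53 fragments at chr3:124878685-124878870 and lay in an H3K27ac region of 83 fragments in NC and 142 in PKM2-KD, whose summits stood 22247 and 22170 bp inside the outermost start. NONO-KD had its 2 ITGB5 regions, of 9 and 48 fragments, in that same acetylated region, and none of the 7 NONO NC regions was there. The outermost start (124901418) was nearly bare of H3K27ac, but the listed start at 124887365, whose upstream bases are shown, had 32 fragments of H3K27ac in NC and 35 in PKM2-KD and H3T11ph of 45 and 67 fragments at places that did not overlap. The H3K27ac region of 101 and 207 fragments, with summits 66135 and 66148 bp inside the gene, contained 2 H3T11ph regions in PKM2-KD, of 50 and 36 fragments, and none in NC.

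ITGB4, the hemidesmosome beta chain, had the most NONO regions of the 9 genes in NC and H3K27ac regions of low height. Its 10 NONO NC regions made 2.16 per 10 kb, above 96.2% of all genes, with heights from 30 to 259 fragments. None of the 10 overlapped an H3K27ac NC region, where 16.8% of all NONO NC regions did. An H3K27ac PKM2-KD region was overlapped by 2 of the 10, against 13.5% of the whole list. NONO-KD had 2 regions, of 77 and 69 fragments, at other places. The tallest H3K27ac region had 22 fragments in NC and 15 in PKM2-KD, below the all-gene medians of 25 and 23. The H3K27ac covered share, 3.76% in NC and 4.81% in PKM2-KD, was above the all-gene medians of 3.65% and 2.61%. H3T11ph had 3 regions of 29 to 40 fragments in NC and none in PKM2-KD. The window also reaches the gene GALK1.

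For H3T11ph, whose lists were of 1 form, the integrin genes held 31 NC regions and 26 PKM2-KD regions, 83.9% of NC (interval 47.8% to 146%), close to the 85.7% of the whole lists. With lists of equal length the direction turned, to 108.3%, and regions with a −log10 q from 5 upward gave 104.2%. Regions were fewer in PKM2-KD at 5 of 9 genes, equal at 1 and more at 3, where 44.7% of all genes with a region had fewer. The tallest region was higher in PKM2-KD at 6 of 9 genes, equal at 1 and lower at 2, where 49.8% of all genes had a higher one. Only 3 of 31 NC regions were found again (9.68%, interval 2.04% to 25.8%, whole list 5.75%): the ITGB1 start, the ITGA2 regions that met at their edges and the ITGB5 region of 53 fragments. When at least 50% of the NC region had to be covered, 3.23% of NC regions were found again.

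The share of H3T11ph regions that lay on H3K27ac was higher at the integrin genes than over the whole lists, whose share lay outside the exact interval in both states. In NC, 13 of 31 H3T11ph regions overlapped an H3K27ac region (41.9%, interval 24.6% to 60.9%), where 19.7% of the whole list did. In PKM2-KD it was 20 of 26 (76.9%, interval 56.4% to 91.0%) against 24.2%. The 20 regions were at ITGB5 (8 of 9), ITGA2 (3 of 4), ITGA3 (3 of 3), ITGA6 (3 of 3), ITGB1 (2 of 4) and ITGA5 (1 of 1). In PKM2-KD the share was above the list at 20 to 49 fragments (83.3% against 19.4%) and at 50 or more (76.9% against 40.8%). In NC it was above the list at 20 to 49 fragments (9 of 15, 60% against 17.9%) and below it at 50 or more (2 of 10, 20% against 30.9%). H3K27ac also covered more of these windows, 9.73% in NC and 12.0% in PKM2-KD against 3.88% and 3.18% over all gene windows, and its part in the overlap was not tested.

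NONO regions at the integrin genes numbered 39 in NC and 17 in NONO-KD, 43.6% of NC (interval 23.1% to 78.9%), where the whole lists stood at 49.6%. With lists of equal length the value was 85.0%. Regions were fewer at 6 of 9 genes, equal at 2 (ITGA2 and ITGA5) and more at 1 (ITGA6, with 1 and 4), where 73.7% of all genes with a region had fewer. The tallest region was higher in NONO-KD only at ITGA5 among the 9 genes (18.0% of all genes), but NONO heights of the 2 states were not on 1 scale. No NC region was found again, 0 of 39, which allows up to 9.03% (exact 95% interval), where the whole list had 2.01%. So the regions of NONO-KD were all at places without an NC region. NONO NC overlapped H3K27ac NC in 11 of 39 regions (28.2%, interval 15.0% to 44.9%, whole list 16.8%) and H3T11ph NC in 1 of 39 (2.56%, whole list 2.95%), at ITGB4 (chr17:75748054-75748322, 104 fragments).

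The other genes of the pathway were described from lists of the remaining integrins, of adhesion partners inside the cell and of matrix ligands. Of 17 other integrins, many of them leukocyte or muscle chains, the median gene had 3.29% of its window covered by H3K27ac in NC and 2.03% in PKM2-KD, near all genes. ITGB2 stood highest with 14.3% and 25.4%. Its tallest region, of 170 and 320 fragments, lay at an end of the gene, whose strand was not known. ITGAE came next with 9.03% and 7.58%. ITGAM (2.16% and 0%) and ITGB8 (2.13% and 1.44%) were lowest. H3K27ac regions were fewer in PKM2-KD at 17 of these 17 genes, where 85.1% of all genes with a region had fewer.

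The 18 adhesion partners had a median of 7.80% in NC and 7.66% in PKM2-KD. Paxillin (PXN, 22.9% and 29.1%) and the integrin-linked kinase gene ILK (21.5% and 38.9%) were highest, and the talin TLN2 (3.03% and 1.87%) and the kindlin FERMT1 (2.13% and 0.284%) lowest. The 15 matrix ligands had a median of 4.80% and 5.57%. The laminin chain LAMB3 was highest (17.8% and 19.1%), and osteopontin (SPP1, 3.24% and 0.746%) and the collagen chain COL1A2 (1.45% and 0.578%) were lowest. H3T11ph was at the start of 3 and 5 of the 18 adhesion partners and of 1 and 1 of the 15 ligands in NC and PKM2-KD. Over all genes 14.9% and 14.7% had such a region.

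The labelled cell type was set against marker genes, of which ITGB2, ITGAL and ITGA2B are also among the other integrins. The mesenchymal and basal markers VIM, AXL, EGFR, CD44 and CAV1 had H3K27ac covered shares of 6.78% to 32.7% in NC, with tallest regions of 114 to 405 fragments, and a region at 5 of 5 starts. The luminal and hormone receptor genes FOXA1, ERBB2, ESR1 and PGR had tallest regions of 24 to 34 fragments and GATA3 had 166. Their covered shares ran from 2.63% (PGR) to 15.9% (GATA3), overlapping those of the mesenchymal and basal markers, and 4 of 5 had a region at the start. Over all genes 68.4% had an H3K27ac region at the start in NC. Among leukocyte and platelet genes, CD3E, ITGAL, PF4 and ITGA2B stayed at or below 26 fragments in NC, while ITGB2 reached 170 and PTPRC 420, the latter away from its ends. The 3 genes whose covered shares over the 6 libraries were most like those of ITGB1, among 6196 genes of similar span, were STX3, NCAPG2 and PHF19, at Euclidean distances of 0.73, 0.83 and 0.87 on the log2(percent + 0.1) scale.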

How the data were processed

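CUT&Tag libraries were made from MDA-MB-231 cells, 1 per group, and the authors deposited 1 narrowPeak list per library. The labels name FastQC 0.11.9, cutadapt 1.18, SAMtools 1.3.1, MACS2 2.1.1.20160309, DESeq2 and the build hg38 in the submitters' processing notes. The aligner and the handling of duplicates were not given in the sources used here, so fragments may include PCR copies. The deposited score equals −log10 q multiplied by 10 with decimals dropped. The deposited fold is a ratio of summit to background with a pseudocount of 1, and p-values and q-values are deposited as −log10. No list held a −log10 q under 1.30, so the authors' threshold lay near a q of 0.05.

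Regions on chromosomes 1 to 22 and X were used, and no column was left unmapped. Gene spans came from a RefSeq table of GRCh38.p14, and strand and starts from a RefSeq promoter table, which held 6 of the 9 genes and 15812 of 19970 in all. The table gives no exons, so regions are placed as inside or outside a gene. Summit heights were recovered as the whole number of fragments that gives both the deposited fold and the −log10 p within 0.002. At least 99.9% of regions in each list were matched, and in H3K27ac NC the pileup was first multiplied by 0.521. The recovery and the overlap count were checked on simulated data.

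A shared base pair sufficed for an overlap. Counts carry exact Poisson intervals, shares exact binomial (Clopper-Pearson) intervals and ratios of counts the interval of a binomial split, all at 95% and for counting error only. Genes were set beside all 19970 genes. Cell states were not tested against each other, since each group had 1 library. Within a library, genes next to each other in regions per 10 kb were compared by an exact binomial split by window length, at 0.05. The members and gene lists were chosen with earlier results of these data known. Named were all 9 genes, and of each other list the 2 with the highest and the 2 with the lowest H3K27ac covered share in NC. One gene that this rule would name is not reported here. ITGB2, GATA3 and PTPRC were singled out among the markers after their values were seen. Alternatives were a −log10 q of at least 5, no flank or 10 kb, regions at least 2 times the narrowest width, lists cut to equal length, a 50% overlap and a 2.5 kb start window. Any listed start and a height of at least 20 fragments were added after the data were seen. Analyses used Python 3.11.15, NumPy 2.4.6, pandas 2.3.3, SciPy 1.17.1 and matplotlib 3.10.9.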

Additional observations from a re-analysis of the deposited data

How the results depend on the processing

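The share of NC regions, counted over the integrin genes, depended on which regions entered. H3K27ac regions in PKM2-KD came to 72.3% of NC, but to 121.8% under a −log10 q minimum of 5, 127.9% with lists of equal length, 145.1% for regions at least 2 times the narrowest width and 89.6% at a height of at least 20 fragments. H3T11ph regions came to 83.9%, but to 104.2% under that q minimum and 108.3% with lists of equal length. NONO regions came to 43.6%, but to 85.0% with lists of equal length and 0% for wide regions, of which NC had 1. The H3K27ac share found again was 42.7%, and 57.1%, 55.1%, 76.8% and 75.3% under those 4 filters in the order given for H3K27ac, and the H3T11ph share was 9.68%, 3.23% with a 50% overlap and 0% for wide regions. Genes with a NONO region at the start went from 1 in NC to 3 with a 2.5 kb window and 0 for wide regions, and from 3 in NONO-KD to 0 for wide regions. Those with H3T11ph went from 1 in NC to 2 at any listed start and 0 for wide regions, and from 2 in PKM2-KD to 1 under that q minimum and 1 for wide regions. The H3K27ac covered length stayed above that of NC under every alternative tried, between 121.4% and 157.3%, and no NONO NC region was found again under any. Of 270 counts per gene and library, 179 stayed within 1.5 times their main value and 91 did not, 46 of these under the width filter. In the H3K27ac pair the pileups were scaled differently, so the q minimum is not the same height minimum in NC and PKM2-KD. Whole-list values under the q, width and height filters were not counted. The causes were not tested. No paired analysis was possible because no group held more than 1 library. Depth limits heights under about 10 fragments, and absence from a list means only that no region passed the authors' threshold.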
